A study of Mus musculus with 12 samples.

Results

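A group of 9 genes for secreted growth factors and the vasoconstrictor endothelin-1 were followed in myeloid cells of the inflamed mouse paw: Inhba, Tgfb1, Edn1, Hbegf, Areg, Ereg, Igf1, Pdgfa and Pdgfb. They were chosen by name as a group of growth factor and endothelin genes, with earlier results of these data known. All 9 were found among the 55401 gene IDs of both deposited count tables. All mice carried floxed Fabp5 alleles. Flox mice had no Cre driver, and LysMCre-cKO mice (cKO below) also carried LysM-Cre, which is active in the myeloid lineage, including macrophages, monocytes and neutrophils. Adult mice of unstated age received saline or 1% carrageenan, a seaweed polysaccharide that provokes acute inflammation, into the hind paw, and CD45+/CD11b+/Ly6G- cells were sorted 4 h later. Each of the 4 groups held 3 libraries, and each library pooled the cells of 3 or 4 mice, so a replicate (pool 1, 2 or 3) is a pool and not an animal.

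TGF-beta 1 and activin A (a dimer of the Inhba product) are related cytokines that signal through paired serine/threonine kinase receptors and SMAD proteins. Amphiregulin (Areg), epiregulin (Ereg) and HB-EGF (Hbegf) are shed from the cell surface and activate the EGF receptor family. IGF-1 and the PDGF chains act through receptor tyrosine kinases of their own, and endothelin-1 acts through the receptors encoded by Ednra and Ednrb. Macrophages are a known source of several of these factors in wounded and inflamed tissue, and endothelin-1 is a known pain-producing mediator in skin.

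Reads on genes ranged from 111925 (Flox saline pool 1) to 2987015 (cKO saline pool 2) per library, and the cKO libraries held 4.99 times the reads of the Flox libraries (ratio of geometric means), so depth moved with genotype. Some libraries lay away from the others of their group. Flox saline pool 1, the shallowest, lay at -188.2 on the first principal component against -7.43 to 32.1 for the other 11 libraries. On the second component cKO carrageenan pool 3 lay at 42.2, against -17.9 and -8.94 for the other pools of its group, and Flox carrageenan pool 2 lay at 108.5, against 57.0 and 24.2. Fabp5 was read in every library. Its level was 5.51, 34.9 and 22.5 normalized counts in Flox saline, 44.3, 98.0 and 34.0 in Flox carrageenan, 6.08, 4.05 and 11.2 in cKO saline and 6.12, 11.5 and 23.0 in cKO carrageenan. The cKO to Flox log2 fold change of Fabp5 was -1.20 ± 0.79 (SE) after saline and -2.06 ± 0.53 after carrageenan, with limma adjusted p of 0.683 and 0.497. Reads of a 3' library can lie outside a deleted exon, so they need not check the deletion. The markers of the gate were present, and Ly6g had 4 reads in all 12 libraries together.

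Inhba and Edn1 rose after carrageenan in both genotypes, and Hbegf rose in Flox (limma on log2(normalized count + 1), Benjamini-Hochberg adjusted p under 0.05 over all genes tested). In Flox, 3 of the 9 members rose and none fell, against 7.17% of 10240 genes called in either direction and 4.42% called higher. In cKO, 2 of 9 rose and none fell, against 2.65% of genes in either direction and 2.1% higher. The members were chosen with earlier results known, so these shares are not an independent test of the group. Inhba and Edn1 passed the filter on low values only through their carrageenan libraries. By edgeR's quasi-likelihood test 4 members were called in Flox (6.01% of genes) and 3 in cKO (7.16%), with Igf1 added as lower in Flox and Pdgfa as higher in cKO. The median log2 fold change of the members was 0.47 in Flox and 0.45 in cKO, against 0.10 and -0.07 over all genes tested. All levels below are normalized counts on a scale common to both treatments, listed for pools 1, 2 and 3. Since levels come from sorted cells in bulk, fewer cells of a type and less RNA per cell cannot be told apart.

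**Figure D1:**
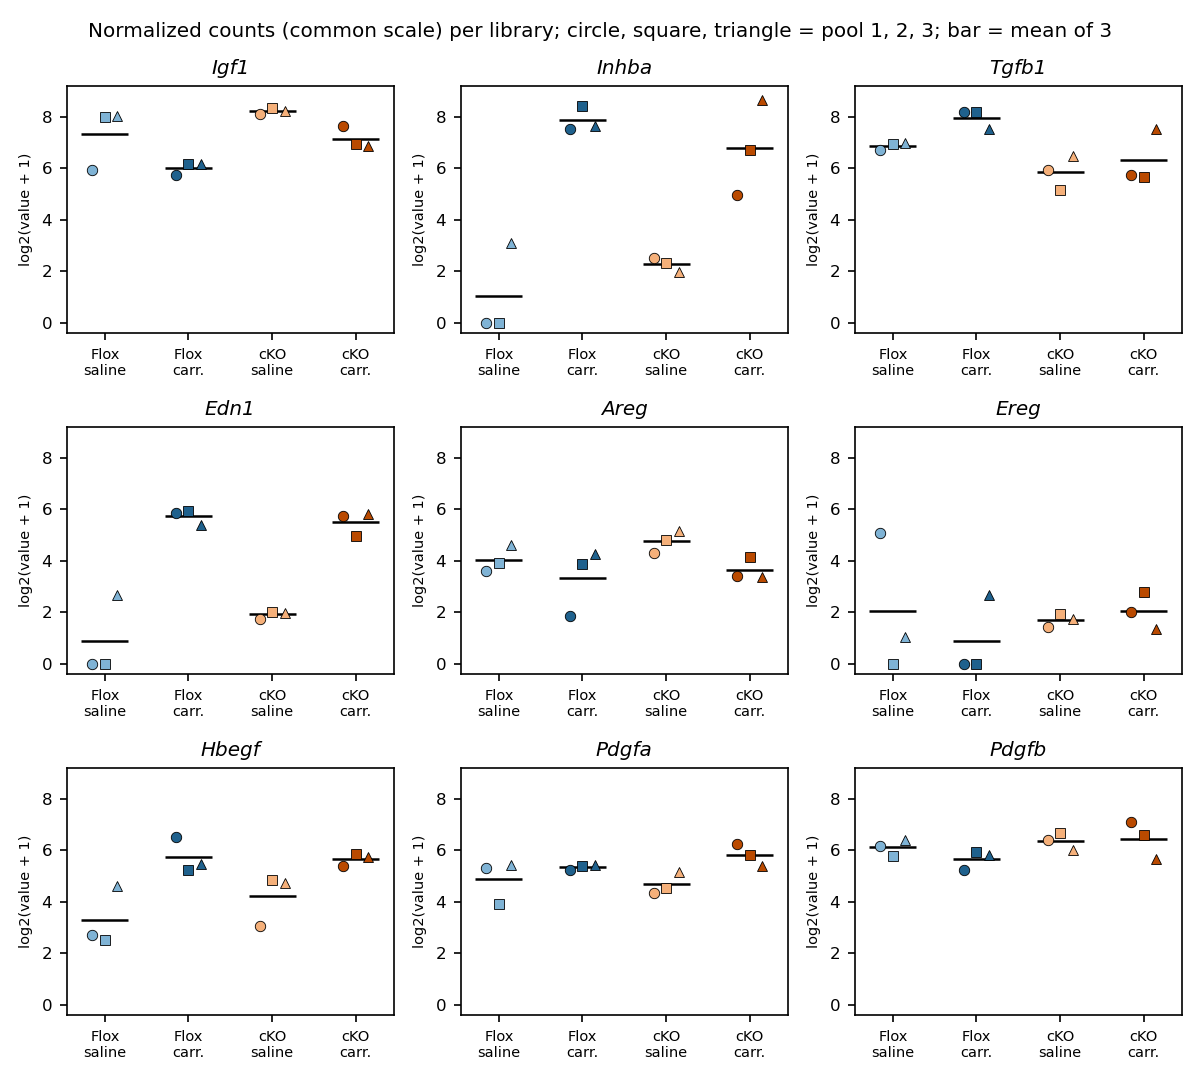
Level of each of the 9 genes in each library, as log2(normalized count on the common scale + 1), by genotype and treatment; symbols are pools 1 to 3 and bars are means of 3. Inhba and Edn1 lie at 7.50 normalized counts or below in all 6 saline libraries and at 30.2 or above in all 6 carrageenan libraries.

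The activin subunit gene Inhba (ENSMUSG00000041324, chr13:16011851-16031621, plus strand, GRCm38) showed the largest change of the 9 members. Its level was 0, 0 and 7.50 in Flox saline and 185, 341 and 201 in Flox carrageenan. In cKO it was 4.73, 4.05 and 2.94 after saline and 30.2, 104 and 405 after carrageenan. The groups did not overlap in either genotype, and the 3 cKO carrageenan pools spread over a far wider range than the 3 Flox carrageenan pools. The Flox saline values rested on 7 reads, all in pool 3, against 438 reads after carrageenan, a size-corrected ratio of 48.2 with an exact 95% interval of 23.2 to 121 that covers counting error only. In cKO 706 reads stood against 35, a ratio of 24.8 (17.7 to 36.0). The limma log2 fold change was 6.84 ± 0.88 (SE) in Flox (adjusted p = 0.000759) and 4.50 ± 0.88 in cKO (adjusted p = 0.0139). Because the saline levels were near 0, these values depend on the added 1. The Flox call held in all 12 omissions of a single library. The cKO call was lost without saline pool 1 (adjusted p = 0.0554) or saline pool 3 (0.0592), and without carrageenan pool 2 (0.0595) or carrageenan pool 3 (log2 fold change 3.56, adjusted p = 0.0933).

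Edn1 (ENSMUSG00000021367, chr13:42301476-42307990, plus strand), which encodes the endothelin-1 precursor, followed the same order of groups. Its level was 0, 0 and 5.36 in Flox saline and 57.3, 60.8 and 41.5 in Flox carrageenan. In cKO it was 2.37, 3.04 and 2.94 after saline and 52.3, 30.3 and 55.2 after carrageenan. All 6 carrageenan pools lay above all 6 saline pools, and the carrageenan values of the genotypes overlapped. The read ratio was 14.6 (6.06 to 46.1) in Flox, from 95 against 5 reads, and 15.04 (9.91 to 23.8) in cKO, from 293 against 24 reads. The log2 fold change was 4.85 ± 0.70 in Flox (limma adjusted p = 0.00142), called in all 12 omissions, and 3.59 ± 0.70 in cKO (adjusted p = 0.0139). In cKO it was not called without saline pool 1 (adjusted p = 0.0748), saline pool 3 (0.0547), carrageenan pool 1 (0.0529) or carrageenan pool 3 (0.0829).

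The promoters of the 2 genes that rose in both genotypes, and that of Igf1, which had negative fold changes in both, are shown for comparison (RefSeq, GRCm38.p6, plus strand of each gene, 250 bases before to 50 after the annotated start). The table holds promoters that can be shown for 6 of the 9 members. They span chr13:16011601-16011900 (Inhba), chr13:42301226-42301525 (Edn1) and chr10:87860861-87861160 (Igf1). The Igf1 window lies inside the gene, which begins at 87858265, so it belongs to an internal annotated start. Capitals mark matches, on either strand, to any of 5 motifs searched.
Inhba: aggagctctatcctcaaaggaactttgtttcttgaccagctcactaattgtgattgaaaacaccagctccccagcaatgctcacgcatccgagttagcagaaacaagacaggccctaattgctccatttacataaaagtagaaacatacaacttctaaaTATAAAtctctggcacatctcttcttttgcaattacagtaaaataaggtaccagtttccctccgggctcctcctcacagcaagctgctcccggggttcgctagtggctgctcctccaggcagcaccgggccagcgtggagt
Edn1: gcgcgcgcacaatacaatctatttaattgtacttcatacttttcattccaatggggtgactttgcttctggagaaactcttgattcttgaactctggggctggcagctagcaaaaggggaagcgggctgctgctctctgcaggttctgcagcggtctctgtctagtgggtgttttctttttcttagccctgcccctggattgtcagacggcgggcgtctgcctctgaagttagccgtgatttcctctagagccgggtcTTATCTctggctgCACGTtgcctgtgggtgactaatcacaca
Igf1: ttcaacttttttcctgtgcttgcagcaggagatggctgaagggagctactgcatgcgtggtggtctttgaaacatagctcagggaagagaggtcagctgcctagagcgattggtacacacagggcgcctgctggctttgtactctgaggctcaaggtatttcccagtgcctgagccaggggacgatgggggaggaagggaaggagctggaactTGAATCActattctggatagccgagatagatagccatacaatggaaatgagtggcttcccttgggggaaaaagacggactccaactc

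The Inhba window held 1 TATA box sequence (TATAAA) at position -91 from the annotated start, which 13.6% of 32851 promoters of this length also held. The Edn1 window held 1 GATA sequence (AGATAA, printed as its reverse complement) at position 8 and 1 HIF core (ACGTG, also reversed) at position 21, held by 11.2% and 19.6% of promoters. The Igf1 window held 1 match to the AP-1 pattern searched (TGANTCA, where N is any base) at position -37, with the letters TGAATCA. That pattern was held by 7.81% of promoters. None of the 3 held the NF-kB consensus searched, which 4.79% of promoters held. The matches did not overlap one another, and a match is a description of these letters and not a binding site. Other forms of these motifs were not searched, so unmarked letters may hold them.

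Hbegf (ENSMUSG00000024486), a membrane-anchored ligand of the EGF receptor, rose in Flox. Its level was 5.51, 4.66 and 23.6 in Flox saline and 91.1, 37.2 and 43.0 in Flox carrageenan. In cKO it was 7.44, 27.6 and 25.3 after saline and 40.8, 57.7 and 52.2 after carrageenan. The Flox saline values stood for only 1, 2 and 22 reads, and the Flox carrageenan values for 35, 11 and 57. The groups did not overlap in either genotype. The log2 fold change was 2.47 ± 0.62 in Flox (limma adjusted p = 0.0259) and 1.45 ± 0.62 in cKO (adjusted p = 0.364). The Flox call was lost without saline pool 2 (adjusted p = 0.0821), carrageenan pool 1 (0.106), carrageenan pool 2 (0.0535) or carrageenan pool 3 (0.0507), with no filter on low values (0.0631) and with only the 6 Flox libraries in the fit (0.101). The difference between the responses was -1.04 ± 0.89 on the log2 scale, with a 95% interval of -2.94 to 0.85, so the change in Hbegf was not shown to differ between genotypes.

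Areg and Ereg, the other EGF family members of the group, were low. Areg (chr5:91139599-91148432) was at 11.0, 14.0 and 23.6 in Flox saline and 2.60, 13.5 and 18.1 in Flox carrageenan. It was at 18.9, 26.8 and 34.7 in cKO saline and 9.51, 16.5 and 9.21 in cKO carrageenan. The Flox groups overlapped, and all cKO carrageenan values lay below the cKO saline values, by a log2 fold change of -1.13 ± 0.64 that was not called (limma adjusted p = 0.642). Ereg (chr5:91074622-91093646) had 7 reads in Flox saline, 7 in Flox carrageenan, 20 in cKO saline and 30 in cKO carrageenan, with 0 reads in 3 of the 6 Flox libraries. Its highest level, 33.1 in Flox saline pool 1, stood for 6 reads of the shallowest library. No difference in Ereg could be detected at this depth, with 95% intervals on the log2 scale of -3.56 to 1.23 (Flox) and -2.04 to 2.74 (cKO).

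Igf1 (ENSMUSG00000020053, chr10:87858265-87937042), the gene for insulin-like growth factor 1, had negative fold changes in both genotypes, with calls that depended on the test. Its level was 60.7, 254 and 259 in Flox saline and 52.1, 71.0 and 71.7 in Flox carrageenan. In cKO it was 273, 320 and 299 after saline and 198, 122 and 117 after carrageenan. The cKO groups did not overlap, and in Flox only the value of saline pool 1 reached into the carrageenan range. The log2 fold change was -1.29 ± 0.44 in Flox (limma adjusted p = 0.0903) and -1.06 ± 0.44 in cKO (adjusted p = 0.335). By edgeR it was -1.62 in Flox (adjusted p = 0.0144) and -1.03 in cKO (adjusted p = 0.0927). Without Flox saline pool 1 the limma values were -1.98 in Flox (adjusted p = 0.000674) and -1.06 in cKO (adjusted p = 0.0158), in fits that called 7.55% and 5.16% of genes, and no other omission gave a call. With only the 6 cKO libraries in the fit, the cKO value of Igf1 had an adjusted p of 0.0367.

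Tgfb1 (ENSMUSG00000002603, chr7:25687002-25705077), the gene for TGF-beta 1, was at 105, 121 and 124 in Flox saline and 292, 291 and 183 in Flox carrageenan. In cKO it was at 60.8, 34.4 and 88.2 after saline and 52.0, 49.2 and 186 after carrageenan. The Flox groups did not overlap, while the cKO groups overlapped and carrageenan pool 3 stood above the other 5 cKO pools. The log2 fold change was 1.09 ± 0.45 in Flox (limma adjusted p = 0.163) and 0.45 ± 0.45 in cKO (adjusted p = 0.947), and the cKO value was -0.17 without carrageenan pool 3.

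Pdgfa and Pdgfb encode the A and B chains of platelet-derived growth factor, a mitogen of fibroblasts and mural cells. Pdgfa (chr5:138976014-138997370, minus strand) was at 38.6, 14.0 and 41.8 in Flox saline and 36.5, 40.5 and 42.3 in Flox carrageenan. It was at 19.3, 22.3 and 34.7 in cKO saline and 75.4, 55.4 and 41.4 in cKO carrageenan. The Flox groups overlapped and the cKO groups did not, with a cKO log2 fold change of 1.15 ± 0.43 (limma adjusted p = 0.263, edgeR adjusted p = 0.0373). An antisense gene, 6330403L08Rik, overlaps Pdgfa and had 116 reads in all, and since the strand of counting is not given in the sources used here, reads of the 2 genes may not be separable. The genes that overlap Inhba and Igf1 on the opposite strand, B230303A05Rik and Igf1os, had 27 and 7 reads. Pdgfb (chr15:79995874-80014977, minus strand) was at 71.7, 53.6 and 84.7 in Flox saline and 36.5, 60.8 and 55.1 in Flox carrageenan. It was at 82.5, 101 and 64.1 in cKO saline and 136, 94.5 and 49.1 in cKO carrageenan. Both pairs of groups overlapped, and the log2 fold changes of -0.46 ± 0.37 and 0.08 ± 0.37 were not called (adjusted p = 0.473 and 0.997).

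**Figure D2:**
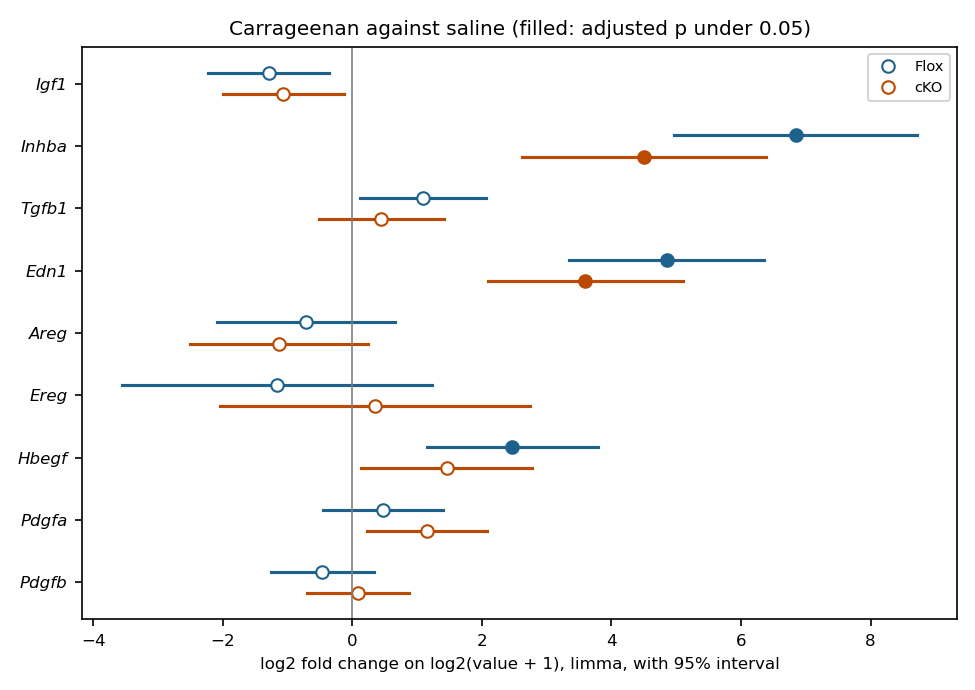
Log2 fold change of carrageenan against saline for each gene, with limma 95% intervals, in Flox and cKO; filled points have an adjusted p under 0.05. Inhba, Edn1 and Hbegf are filled in Flox and Inhba and Edn1 in cKO, and the intervals of the genotypes overlap for all 9 genes.

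In Flox 4 of the 9 members did not overlap between treatments, all higher after carrageenan, against 23% of the 10240 genes in either direction and 13% higher. In cKO 6 of 9 did not overlap, 4 higher and 2 lower, against 29.6% of genes, 12.6% higher and 17% lower. The limits of choice and filter given above hold for these counts too. The response to carrageenan was not called different between genotypes for any member: limma called 0 of 9 and 0% of 10243 genes, 0 of 9 had an unadjusted p under 0.05 (2.38% of genes), and edgeR and DESeq2 called 0 of 9. The difference of responses, cKO minus Flox, was -2.37 ± 1.26 log2 units for Inhba (95% interval -5.05 to 0.32), 1.46 ± 1.58 for Ereg (-1.91 to 4.83) and -1.29 ± 1.01 for Edn1 (-3.44 to 0.87). By edgeR the differences of Inhba and Edn1 were -0.38 and -0.06, and the Flox saline values of both genes were 0 in pools 1 and 2.

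Across the 12 libraries, Inhba and Edn1 had a Pearson r of 0.96 on log2 levels, Edn1 and Hbegf 0.90, and Tgfb1 and Pdgfb -0.83. The points share treatment, genotype and depth, so these values describe the libraries only. Among 5506 genes with a mean level of at least 20 normalized counts, those most like Inhba were Sema4d (r 0.99), Arf4 (0.98) and Mxd1 (0.98). For Edn1 they were Csf1 (0.98), Saa3 (0.97) and Il1rn (0.97). For Igf1 they were St6gal1 (0.96), Tbc1d22a (0.94) and P2ry13 (0.93), and for Tgfb1 they were Rpsa, Impdh2 and Rps15 (0.97 each).

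Markers of several cell types moved with treatment. The summed level of 10 inflammatory monocyte markers was 573 to 1462 in Flox saline, 5793 to 7815 in Flox carrageenan, 474 to 934 in cKO saline and 2168 to 8733 in cKO carrageenan, and 8 (Flox) and 7 (cKO) of the 10 rose. Thbs1, which is among the 10, made up a large part of that sum. Its mean level was 400 after saline and 3540 after carrageenan in Flox, and 389 and 3392 in cKO. The sum of 15 resident macrophage markers was 11231 to 14989, 3764 to 4736, 14965 to 18443 and 5020 to 8518 in the same order, and 11 and 6 of the 15 fell. The sum of 10 neutrophil markers was 22.1 to 72.9, 395 to 717, 18.7 to 32.3 and 140 to 695, with 5 and 4 of the 6 tested higher, Camp at 0 reads and Ltf at 1. Within the cKO carrageenan group, Inhba (30.2, 104 and 405) and the monocyte sum (2168, 5229 and 8733) had the same order of pools. Edn1 (52.3, 30.3 and 55.2) did not. Tgfb1 and the monocyte and neutrophil sums were highest, and Igf1 and the resident macrophage sum lowest, in pool 3 of that group. The part of these cell types in the members' values was not tested.

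Markers of cells outside the gate were also read. The sum of 8 endothelial and mural cell markers was 0 to 21.4 in Flox saline and 62.5 to 67.6 in Flox carrageenan, where 2 of the 5 tested rose. In cKO it overlapped between treatments, at 32.9 to 70.5 and 46.2 to 63.3, with 0 of 5 called. Edn1 in cKO was at most 3.04 after saline and at least 30.3 after carrageenan. The 8 marker genes had few reads, from 25 (Tek) to 249 (Rgs5) in all. The part of these cells in the Edn1 values was not tested. Fibroblast markers summed to 38.6 to 602 and 737 to 1294 in Flox (2 of 10 higher) and to 275 to 682 and 721 to 1078 in cKO (0 of 10 called). Keratinocyte markers, which bear on the EGF family ligands, had sums of 419 to 741 and 561 to 851 in Flox and of 851 to 1838 and 712 to 1172 in cKO, with 0 of 10 called in both. Of 7 platelet markers, which bear on the PDGF chains and TGF-beta 1 because platelets store both, Pf4 had 78593 reads in all, Ppbp 370, Treml1 70, Itga2b 44, Gp9 1, Gp6 1 and Gp1bb 0. Pf4 is also expressed by resident macrophages. Genes of the tissue dissociation response, early response genes such as those induced by enzymatic digestion, summed to 9985 to 11760 and 7379 to 9578 in Flox and to 10917 to 17425 and 10397 to 16581 in cKO, with 1 of 14 lower in Flox and 0 of 14 called in cKO.

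**Figure D3:**
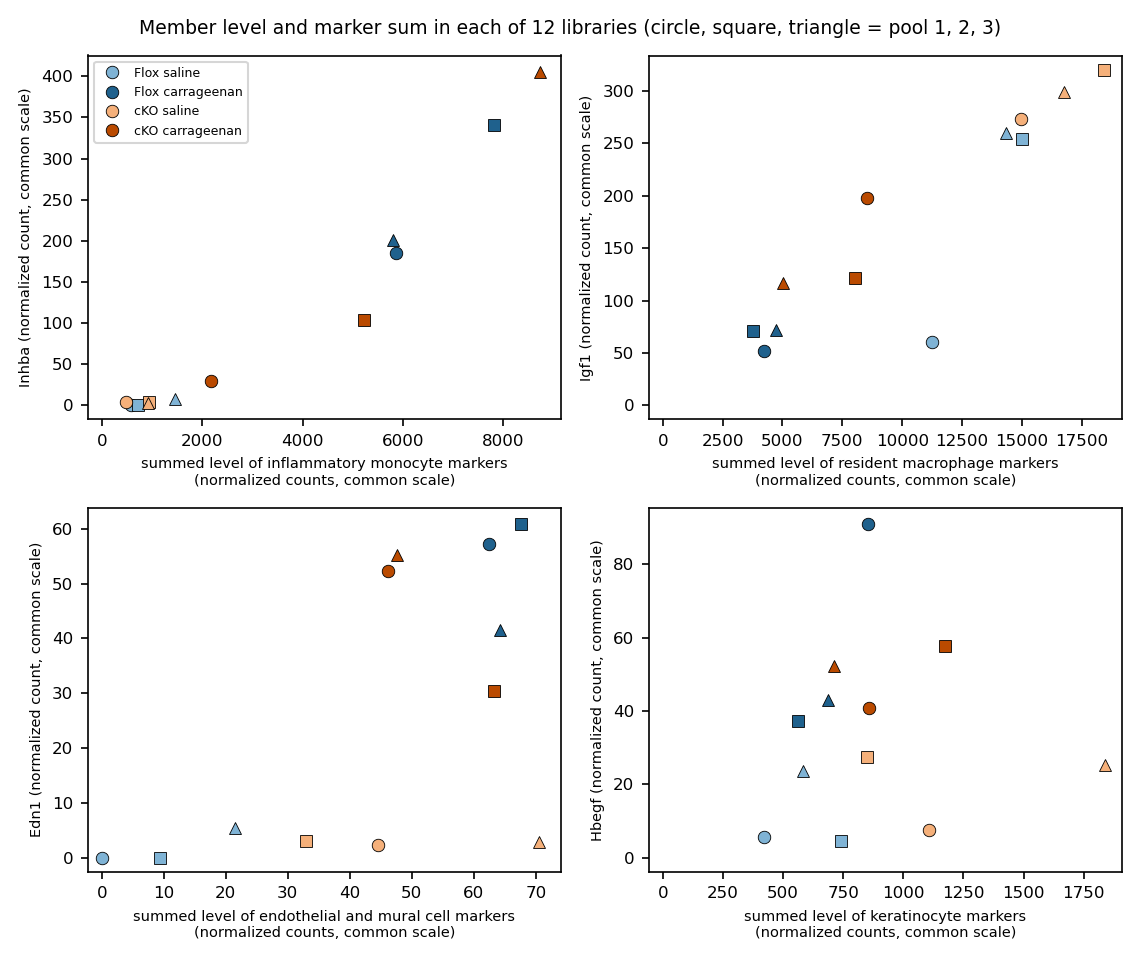
Level of Inhba, Igf1, Edn1 and Hbegf against the summed level of inflammatory monocyte, resident macrophage, endothelial and mural cell, and keratinocyte markers in each of 12 libraries (normalized counts, common scale; symbols are pools 1 to 3). Inhba is highest where the monocyte sum, of which Thbs1 is a large part, is highest (405 at 8733). In cKO the endothelial sums overlap between treatments and the Edn1 levels do not. The part of these cell types was not tested.

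Partners of the members were listed in 12 sets of receptors, binding proteins, proteases and other ligands. Of 113 genes, 71 could be tested. In Flox 12 rose and 5 fell after carrageenan, 23.9% of those tested, and in cKO 6 rose and 3 fell, 12.7%, against the 7.17% and 2.65% of all genes. Their median log2 fold change was 0.44 in Flox and 0.30 in cKO. Without cKO carrageenan pool 3 the cKO count was 2 (Furin and Nrp1), with 1.05% of all genes called. The sets were chosen with earlier results of these data known, so these shares are not a test of the pathways. The filter counted all 12 libraries, so a gene could pass through carrageenan alone. Csf1 had 3 reads in Flox saline and 91 in Flox carrageenan, and Nrg1 had 9 and 124.

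Around activin and TGF-beta, binding and activating proteins gave 4 of 7 tested higher in Flox and 2 of 7 in cKO, with none lower. Thbs1, whose product thrombospondin-1 can activate latent TGF-beta and which also stands among the monocyte markers, rose by a log2 fold change of 3.37 ± 0.56 in Flox (limma adjusted p = 0.00307) and 3.13 ± 0.56 in cKO (0.00827, kept in 10 of 12 omissions of a library). Furin, a protease that processes TGF-beta precursors, rose by 0.94 ± 0.22 (0.0166) and 1.03 ± 0.22 (0.0197), kept in 9 and 8 of 12. Lrrc32, which anchors latent TGF-beta on the cell surface, rose by 3.30 ± 0.69 in Flox (0.0107), as did Fstl1, a follistatin-like protein, by 3.12 ± 0.89 (0.0477), a call kept in 1 of 12 omissions. The cKO values of Lrrc32 (1.39) and Fstl1 (1.37) were not called. Of 7 tested receptors, Tgfbr2, the ligand-binding type II TGF-beta receptor, fell in Flox (-1.47 ± 0.33, adjusted p = 0.0153, kept in 11 of 12 omissions). None was called in cKO, where Tgfbr2 had a value of -1.04. The activin type II receptor gene Acvr2a had 737 reads in all and was not called. Of 9 SMADs and their regulators 0 were called in both genotypes.

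Among 6 further EGF family ligands, 1 could be tested: Nrg1, the gene for neuregulin-1, rose by 4.65 ± 0.87 in Flox (limma adjusted p = 0.00565) and 3.98 ± 0.87 in cKO (0.0246), the latter call kept in 7 of 12 omissions. Of 5 tested EGF receptor family and feedback genes, 0 were called in either genotype. Egfr had 399 reads in all, Erbb2 17 and Erbb4 2. Of 8 genes of ligand shedding, Timp3, an inhibitor of metalloproteinases, was called in Flox (2.93 ± 0.79, adjusted p = 0.0365), which held in 2 of 12 omissions. Timp3 had 5 reads in Flox saline and 26 in Flox carrageenan, and its cKO value was -0.34. Endothelial and fibroblast markers were also called in Flox only, and the part of such cells in Timp3 was not tested.

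In the endothelin pathway, 2 of 7 genes could be tested. Ednrb, the endothelin B receptor, fell in Flox (-1.43 ± 0.41, limma adjusted p = 0.0488), a call kept in 3 of 12 omissions, and its mean level was 221 ± 70.0 (SD, n = 3) in Flox saline and 78.8 ± 11.0 in Flox carrageenan. In cKO its means were 248 ± 53.8 and 147 ± 79.1, not called. Ednra, the endothelin A receptor, had 2 reads in the 12 libraries, Edn3 1 and Ece2 1.

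Of 12 tested genes of the IGF pathway, the binding protein gene Igfbp4 fell in both genotypes (-1.49 ± 0.31 in Flox, adjusted p = 0.00925, and -1.56 ± 0.31 in cKO, adjusted p = 0.0139, kept in 9 of 12 omissions). Stat5a, a transcription factor that acts downstream of growth hormone and cytokine receptors, rose in both (1.24 ± 0.35 and 1.43 ± 0.35, adjusted p = 0.0446 and 0.0433), calls kept in 2 and 4 of 12 omissions. Igfbp3 rose in Flox (2.77 ± 0.74, adjusted p = 0.0349), kept in 2 of 12, from 4 reads in saline and 24 in carrageenan. Its cKO value was -0.0084. Among PDGF and VEGF receptors and coreceptors, the semaphorin and VEGF coreceptor Nrp1 fell in both (-2.50 ± 0.30 and -1.89 ± 0.30, adjusted p = 0.000611 and 0.00363), in all 12 omissions. Flt1 rose in Flox (3.60 ± 0.73, adjusted p = 0.00904), as did Kdr (2.99 ± 0.81, adjusted p = 0.0389), an endothelial marker with 1 read in Flox saline and 17 in Flox carrageenan whose call was kept in 2 of the 9 omissions that tested it. The cKO values of Flt1 (0.81) and Kdr (0.84) were not called. Pgf, for placental growth factor, rose in cKO (2.36 ± 0.49, adjusted p = 0.0182), kept in 7 of 12, and its Flox value of 1.26 was not called. Of 8 tested other ligand genes, Csf1 rose in Flox, where it had a log2 fold change of 4.91 ± 0.63 (adjusted p = 0.000759). The cKO value of Csf1, 2.33, was not called. Osm, for oncostatin M, rose and the resident macrophage marker Gas6 fell in both genotypes (Osm 2.90 ± 0.43 and 1.94 ± 0.43, Gas6 -2.92 ± 0.41 and -1.76 ± 0.41), with the cKO calls kept in 8 and 5 of 12 omissions.

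**Figure D4:**
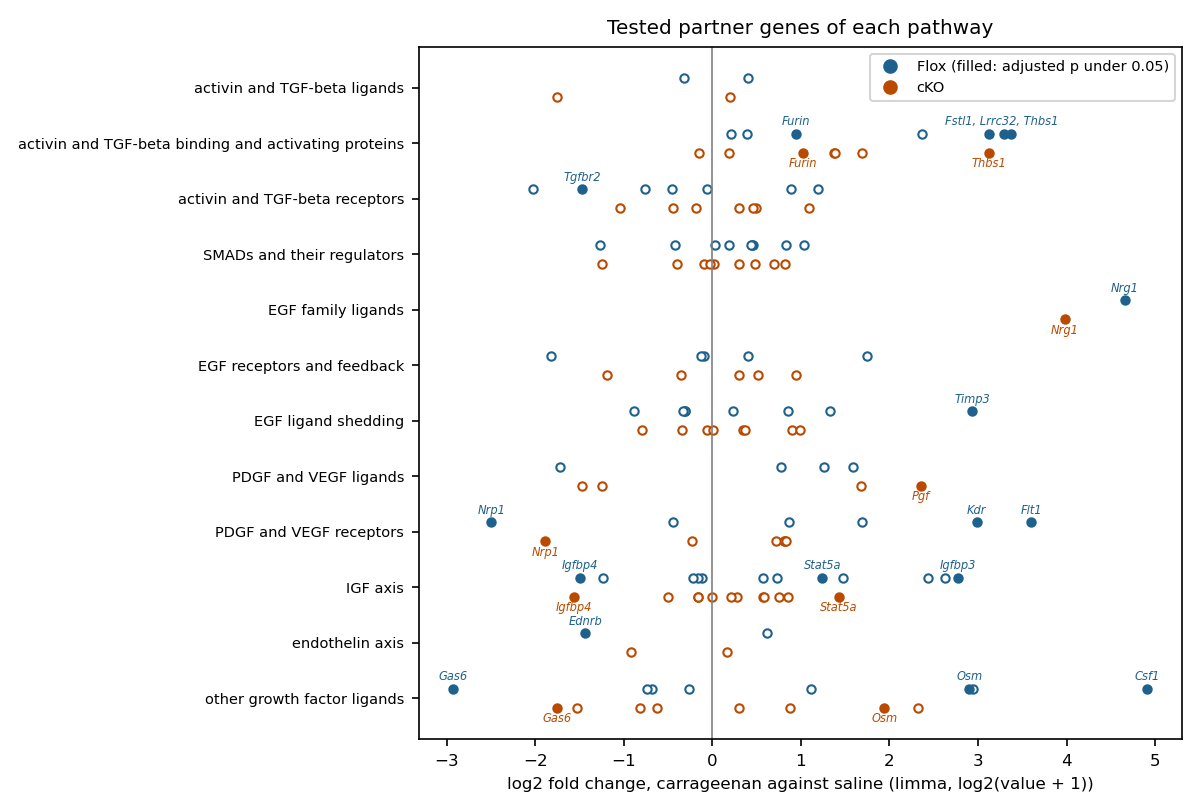
Log2 fold change of carrageenan against saline for each tested partner gene, by pathway (blue, Flox; orange, cKO); filled points have a limma adjusted p under 0.05 and carry the gene's name. No SMAD or EGF receptor family gene is filled, and Nrg1 lies at 4.65 and 3.98.

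The comparison of genotypes asks whether the levels of these factors differed between cKO and Flox. Only cKO mice carried Cre, so Cre and the Fabp5 deletion cannot be told apart. Lyz2, checked beside Fabp5, had cKO to Flox log2 fold changes of -0.57 ± 0.37 after saline and -1.14 ± 0.28 after carrageenan (limma adjusted p = 0.683 and 0.497). Within each treatment no member passed the test, and the members with the largest ratio of effect to error were Tgfb1, lower in cKO, and Igf1, higher in cKO. After saline limma called 0 of the 6 members tested and 0% of 9371 genes. At an unadjusted p under 0.05 there was 1 member (Tgfb1, with 5.42% of genes), and edgeR and DESeq2 called 0 members (0% and 0.235% of genes). Inhba, Edn1 and Ereg were too low to be tested there. After carrageenan limma called 0 of 8 members and 0% of 9151 genes, with 2 members (Tgfb1 and Igf1) at an unadjusted p under 0.05 (9.8% of genes) and 0 called by edgeR and DESeq2 (0% and 0.0765% of genes). Averaged over both treatments limma called 0 of 9 members, against 0.00976% of 10243 genes, with 2 (again Tgfb1 and Igf1) at an unadjusted p under 0.05 (14.9% of genes). For that average edgeR called 0 members and 0.635% of genes, and DESeq2 called 1 (Tgfb1, adjusted p = 0.0332) and 2.48%.

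Tgfb1 was 105 to 124 in Flox and 34.4 to 88.2 in cKO after saline, with no overlap, and the log2 fold change was -0.99 ± 0.36 (limma adjusted p = 0.683, 95% interval -1.81 to -0.16). After carrageenan the pools were 183 to 292 in Flox against 52.0, 49.2 and 186 in cKO, so that only cKO pool 3 reached the Flox range. That log2 fold change was -1.65 ± 0.47 (adjusted p = 0.497, interval -2.69 to -0.62). Without cKO carrageenan pool 3 it was -2.27 ± 0.26 (adjusted p = 0.00688), a fit in which 4.71% of genes were called, and without Flox carrageenan pool 2 it was -1.54 (adjusted p = 0.549). The mean of both treatments was -1.32 ± 0.32 (adjusted p = 0.194) with all libraries, -1.63 (0.00891) without that pool, where 2.27% of genes were called, and -1.68 (0.00237) without Flox saline pool 1 and cKO carrageenan pool 3, where 7.69% were called. That mean treats the saline and carrageenan libraries of a mouse-number pool as independent. With 1 mean per pool over both treatments, 3 against 3, it was -1.32 ± 0.36 (limma adjusted p = 0.390). In the authors' deposited table the log2 fold change of Tgfb1 was -0.78 ± 0.34 after saline (adjusted p = 0.606) and -1.11 ± 0.38 after carrageenan (adjusted p = 0.252). Of 10 inflammatory monocyte markers 0 were called between genotypes, in either treatment or averaged. Averaged over treatments all 10 had log2 fold changes below 0 (median -0.77, against 0.23 over all genes tested). After saline 7 were below 0 and 3 above (median -0.36, against 0.25). Their saline sums overlapped, at 573 to 1462 in Flox and 474 to 934 in cKO. After carrageenan all 10 were below 0 (median -0.80), and their sum was 5793 to 7815 in Flox against 2168, 5229 and 8733 in cKO, where pool 3 was highest in both Tgfb1 and the sum. Their part in the Tgfb1 difference was not tested.

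Igf1 was higher in every cKO pool than in every Flox pool after saline (273 to 320 against 60.7 to 259) and after carrageenan (117 to 198 against 52.1 to 71.7). The log2 fold change was 0.93 ± 0.54 after saline (limma adjusted p = 0.683) and 1.13 ± 0.29 after carrageenan (adjusted p = 0.497, interval 0.48 to 1.78). Without Flox saline pool 1 the saline value was 0.21, and without cKO carrageenan pool 3 the carrageenan value was 1.27 (adjusted p = 0.0476). The authors' deposited table gave 0.50 ± 0.36 for Igf1 after saline (adjusted p = 0.838) and 1.02 ± 0.31 after carrageenan (adjusted p = 0.181). The resident macrophage sum was likewise higher in cKO than in Flox after carrageenan (5020 to 8518 against 3764 to 4736), and its part in the Igf1 difference was not tested.

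For the other members the genotypes overlapped in both treatments. The count without overlap was 2 of 6 after saline, against 15.6% of genes, and 1 of 8 after carrageenan, against 15.1%. After carrageenan the log2 fold changes were -1.08 ± 0.72 for Inhba, -0.23 ± 0.33 for Edn1, 0.31 ± 0.68 for Areg, -0.08 ± 0.37 for Hbegf, 0.49 ± 0.31 for Pdgfa and 0.78 ± 0.39 for Pdgfb. The 95% intervals were -2.69 to 0.53 for Inhba and -0.97 to 0.51 for Edn1, so a fall of Edn1 by more than 0.97 log2 units lay outside them. Without cKO carrageenan pool 3, Inhba stood at -2.02 (adjusted p = 0.0614) and Pdgfb at 1.18 (adjusted p = 0.0737). Of the partner genes, limma called 0 of 61 tested after saline and 0 of 69 after carrageenan. At an unadjusted p under 0.05 there were 10 of 61 after saline, against 5.42% of all genes, and 7 of 69 after carrageenan, against 9.8%. edgeR called 0 partner genes in both, and DESeq2 called 0 after saline and 1 after carrageenan (0.235% and 0.0765% of all genes). Without cKO carrageenan pool 3, 7 of them were called after carrageenan, with 4.71% of all genes called in that fit: Adam8, Ednrb, Gas6, Grn, Lrp1, Spred1 and Tgfbr2.

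**Figure D5:**
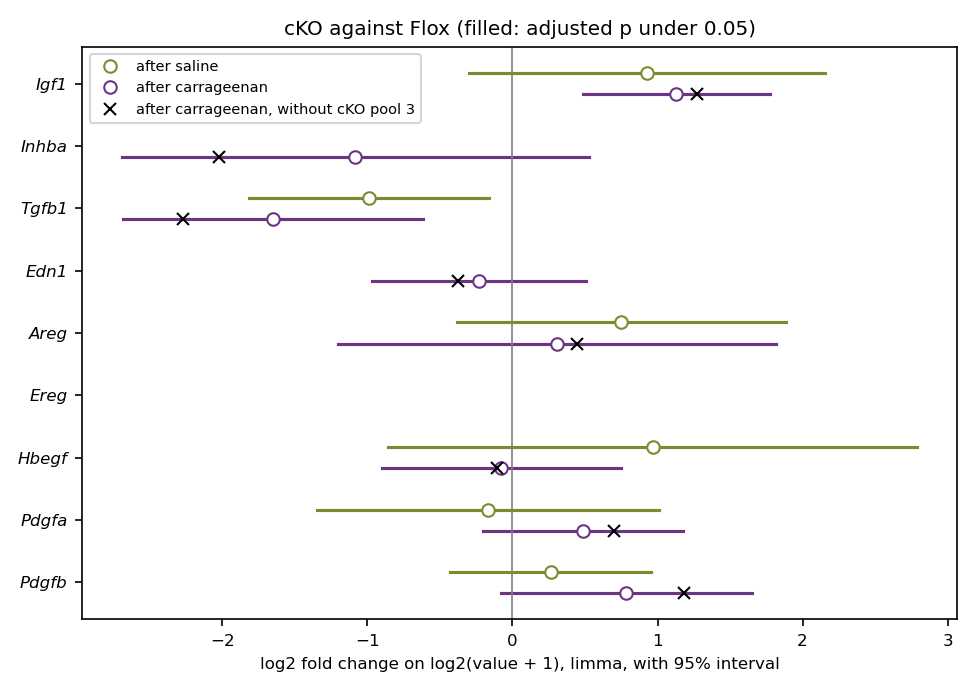
Log2 fold change of cKO against Flox for each gene with limma 95% intervals, after saline and after carrageenan; open points were not called, crosses give the carrageenan value without cKO carrageenan pool 3, and Ereg was too low to be tested. Tgfb1 lies below 0 (-0.99 and -1.65) and Igf1 above 0 (0.93 and 1.13) in both treatments.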

How the data were processed

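RNA of sorted paw cells was made into 3' libraries with unique molecular identifiers (Lexogen LUTHOR), per the labels' protocols. Per the submitters' processing notes cutadapt, STAR and GRCm38 were used, without naming a read counter. The deposited tables hold a signal in normalized counts, with saline and carrageenan normalized separately by the authors. A second pair of tables deposited by the authors lists a log2 fold change of cKO over Flox, its error, a p-value and an unused test statistic (a score) per gene, per the file headers. Whether molecular identifiers were counted is not given in the sources used here.

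Each value was a whole multiple of the library's value of 1 read (100% of low values, tolerance 0.001), so reads were recovered, and both treatments were put on a common scale by medians of ratios over 6501 genes. The 121 entries that are not genes (0.170 to 2.23% of reads) were left out, and 55141 IDs matched a symbol (GENCODE vM21). limma 3.58.1 (R 4.3.3) was fitted to log2(value + 1) over genes with at least 5 normalized counts in at least 3 libraries. Carrageenan was compared with saline over all 12 libraries on the common scale, and genotypes within a treatment over 6 libraries, and averages and differences of responses over all 12, on the deposited scale. edgeR 4.0.16 and DESeq2 1.42.0 on recovered reads, other pseudocounts, filters and scalings, and omissions of libraries were alternatives. The fit was tested on simulated data with changes in Flox carrageenan only. There limma called 10% of 50 genes with a true log2 fold change of 1, so most changes of that size were missed. It called 82% at 2, 100% at 3, 66% at -2 and 0.15% of unchanged genes. The simulation gave all libraries the same spread, without pools that lay away from their group.

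The members and the lists of partner and marker genes were chosen with earlier results of these data known. Every member is named, with the called genes of a list (the 4 with the smallest p where more were called). No pair of libraries of a group was a duplicate (chi-square per degree of freedom at least 3.00). P-values measure the spread between pools. The same mouse numbers recur in saline and carrageenan. Deviations of like-numbered libraries had correlations of 0.200 to 0.434 in cKO and -0.02 to 0.11 in Flox. The unlike cKO pair of saline pool 2 and carrageenan pool 1 was at 0.236, and the other unlike cKO pairs at -0.395 to 0.0294. Whether the numbers mark pairs was thus not settled, and the labels do not say. The main fits used no pairing, and a block for every pool of both genotypes was an alternative. The exact intervals of read ratios cover counting error only, whereas the limma intervals rest on the spread between pools.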

Additional observations from a re-analysis of the deposited data

How the results depend on the processing

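In the comparison of carrageenan with saline, member counts were 3 in Flox and 2 in cKO; leaving out single libraries gave 2 to 4 and 0 to 3. For genotype after carrageenan the count was 0, with omissions giving 0 to 2, 2 without Flox saline pool 1 and cKO carrageenan pool 3, and 3 without these and Flox carrageenan pool 2. For genotype averaged over treatments it was 0, with omissions giving 0 to 1; it was 1 by DESeq2, 2 and 3 without the same 2 and 3 libraries, and 0 with 1 mean per mouse-number pool. These omissions and the pool means were chosen after seeing the data. With the mouse numbers as a replicate block the member counts stayed 3 and 2, and no member call changed.

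Of 1025 values of single members under alternatives, 947 kept their direction and side of the threshold, 14 lost and 24 gained a call, and 40 changed sign, none of them called; the cause was not tested. With the deposited scale, Pdgfb in cKO changed to -0.030; that scale moved the median of all genes by -0.08 in Flox and -0.11 in cKO. With TMM scaling, Hbegf between genotypes after carrageenan changed to 0.0057. Without the 2 libraries, Tgfb1 in cKO changed to -0.17, Pdgfa between genotypes after saline to 0.020 and Inhba averaged over treatments to -0.63. Without the 3 these were -0.17, 0.020 and -0.50, and the difference of responses of Areg changed to 0.21. Areg between genotypes after carrageenan changed to -0.11 by edgeR and -0.045 by DESeq2. Averaged over treatments, Inhba changed to -0.31 (pseudocount 5), -0.28 (edgeR) and -0.13 (DESeq2), Edn1 to -0.17 (edgeR) and -0.17 (DESeq2), and Ereg to -0.064 (pseudocount 5), -0.48 (edgeR) and -0.70 (DESeq2). Over single omissions, Areg ranged from -1.18 to 0.021 and Pdgfa from -0.017 to 0.74 in Flox, and Tgfb1 from -0.17 to 0.78 and Pdgfb from -0.25 to 0.48 in cKO. Between genotypes after saline Pdgfa ranged from -0.65 to 0.12, and after carrageenan Edn1 ranged from -0.40 to 0.043, Areg from -0.42 to 0.77 and Hbegf from -0.32 to 0.32. Averaged over treatments Inhba ranged from -0.37 to 0.63, Ereg from -0.093 to 0.60 and Pdgfa from -0.080 to 0.31. The difference of responses ranged from -0.17 to 0.92 for Igf1 and from -1.17 to 0.019 for Areg.
Counts over all genes moved more. In Flox 734 genes were called, against 418 with no filter and 279 with only the 6 libraries of the genotype, and 350 to 1080 over single omissions. In cKO 271 were called, against 143 with no filter, 733 by edgeR, 915 by DESeq2 and 723 with only 6 libraries, and 84 to 521 over omissions. Between genotypes DESeq2 called 22 after saline and 7 after carrageenan, and 420 were called after carrageenan without cKO carrageenan pool 3. Averaged over treatments 1 gene was called, against 8 (pseudocount 5), 0 (no filter), 65 (edgeR), 254 (DESeq2), 0 to 230 over omissions 769 without the 2 libraries, 1109 without the 3 and 0 with pool means. Without the 3, 580 were called in cKO and 642 between genotypes after carrageenan. Depth limits Ereg most, Inhba and Edn1 after saline, and Hbegf in Flox saline.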
